A study of Mus musculus with 6 samples.

Results

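The genes described here are 47 components of bone morphogenetic protein (BMP) and transforming growth factor beta (TGF-beta) signalling: 21 ligands, 6 secreted antagonists, the protease gene Bmp1, 10 receptor genes including the pseudoreceptor gene Bambi, 7 Smads and the target genes Msx1 and Msx2. They were taken as the probes whose gene name on the array is one of these 47 symbols, which gave 68 of 41174 probes. Their RNA was measured in mouse embryos at embryonic day 9.5, of which WT embryos were the one group and Paraxis-/- embryos the other, with C57BL/6J given as the strain of both. Paraxis, the product of Tcf15, is a basic helix-loop-helix factor that new somites need in order to become epithelial balls. The tissue was the front of the unsegmented paraxial mesoderm together with somites I-IV, the 4 youngest somites. A sample was a pool of tissue from 5 embryos, and the embryos of a pool cannot be told apart. Of each genotype there were 3 pools. A WT pool and its Paraxis-/- partner were hybridised together on 2 arrays, with the dyes exchanged on the second. Replicates are pairs, since partner pools were measured on the same arrays, and the 3 pairs are called A, B and C after their WT pool, and pair A was hybridised on one slide and pairs B and C on another. The labels name no treatment and do not say which part of Tcf15 the allele lacks. Values are log2 ratios of Paraxis-/- over WT, averaged over both dye orientations of a pair, or log2 signals of single pools. Each mean is over n = 3 pairs and carries its standard error (SE) from limma; so few pairs limit its precision.

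BMPs, growth and differentiation factors (GDFs), activins, Nodal and the TGF-betas are secreted dimers that bind pairs of type I and type II receptor kinases, which phosphorylate receptor Smads. BMP receptors act through Smad1 and Smad5, and activin, Nodal and TGF-beta receptors through Smad2 and Smad3; Smad4 is the common partner of both branches, and Smad6 and Smad7 inhibit them. Antagonists such as noggin, gremlin and follistatin bind ligands outside the cell. In the trunk of the embryo BMP signals from the lateral plate, the surface ectoderm and the roof plate oppose the somite's early muscle and sclerotome programmes, and antagonists made in and around the somite limit them.

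The 7 probes below measured 6 genes, picked from these results, with ratios of opposite sign within 1 family or role. They are the TGF-beta ligands Tgfb2 and Tgfb3, the BMP ligands Bmp7 and Bmp3, and the antagonists Nbl1 and Fst. Other genes also differed in sign within a role, such as the antagonists Grem1 and Fstl1. Each probe has 60 bases, of which the first 30 are printed 5′ to 3′ from the deposited array annotation.

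Tgfb2: tcatccattatttccctgatttcattgaaa

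Tgfb3: tcccatgtctgacatgatgactcggcccca

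Bmp7, brighter probe: gctggcgtctgtgttgaagggaaaccaagc

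Bmp7, second probe: cctggcgctctgagtctttgaggagtaatc

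Bmp3: agaatgtagtgctcaaagtctaccctaaca

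Nbl1: agccttagagcttgtaactagtagccatct

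Fst: gatccattggattagcctatgagggaaagt

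In mm9, the build named in the file headers, the Tgfb2 probe lies on the minus strand at chr1:188447534-188447593 and the Tgfb3 probe on the minus strand at chr12:87397804-87397863. At the best ungapped alignment their 60 bases matched at 21 positions. The Tgfb1 probe matched them at 21 and 22 positions, so the opposite ratios were read by probes of different sequence. Probes were compared only with probes, and whether one binds the transcript of another TGF-beta gene was not tested. The Bmp7 probes lie side by side on the minus strand at chr2:172695203-172695262 and chr2:172695282-172695341, and the Bmp3 probe on the plus strand at chr5:99308890-99308949. Nbl1 was measured on the minus strand at chr4:138638223-138638282. The Fst probe covers 673 bases of the genome, chr13:115244692-115245364 on the minus strand, so it crosses a splice junction. It matched the probe of its relative Fstl1 at 25 of 60 positions. Whether the other probes lie in coding or untranslated exon sequence is not annotated here.

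In all, 42 of the 47 genes were tested. The other 5, the ligand genes Bmp8a, Bmp8b, Bmp10, Gdf3 and Inhba, had no probe well above background in at least 4 of 6 measurements of either genotype, and no ratio is given for them. No gene of the pathway passed an adjusted p of 0.05 in limma, a threshold passed by 4 of the 19354 genes tested, or 0.0207%. The smallest adjusted p was 0.27, for Nbl1. At an unadjusted p under 0.05 there were 11 of 42 genes, or 26.2%, against 5.07% of all genes tested. Of these, 5 were higher in Paraxis-/- tissue (2.34% of all genes met this) and 6 lower (2.73% of all genes). The genes higher were Nbl1, Tgfb2, Grem1, Bmp7 and Msx2, and those lower were Fst, Tgfb3, Bmp3, Acvr2b, Fstl1 and Acvr1. With arrays centred on their median in place of loess, 11 genes again had an unadjusted p under 0.05, against 7.34% of all genes in that fit. Of these, 7 were higher and 4 lower, and 9 were among those just named. The median log2 ratio of all genes was 0.03 with this centring.

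The ratios therefore spread to both sides and the group had no common direction. The median log2 ratio of the 42 genes was 0.01, against 0.00 for all genes tested, with 22 positive and 20 negative means. Their median absolute log2 ratio was 0.12, against 0.07 for all genes. The log2 ratio was positive in all 3 pairs for 11 of the 42 genes (13.5% of all genes tested) and negative in all 3 pairs for 8 (12.2% of all genes). All 3 Paraxis-/- pools lay above all 3 WT pools for 6 genes (3.09% of all genes) and below them for 4 (2.87% of all genes). A mean change of at least 1.5-fold was reached by 3 genes, Nbl1, Tgfb3 and Fst (0.77% of all genes reached it). Across the 42 genes Pearson's r of the pair ratios was 0.45 for A with B, 0.57 for A with C and 0.65 for B with C, while over all genes tested it was 0.11, 0.07 and 0.17. These are descriptions across genes, which share their arrays and are not independent replicates.

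**Figure D1:**
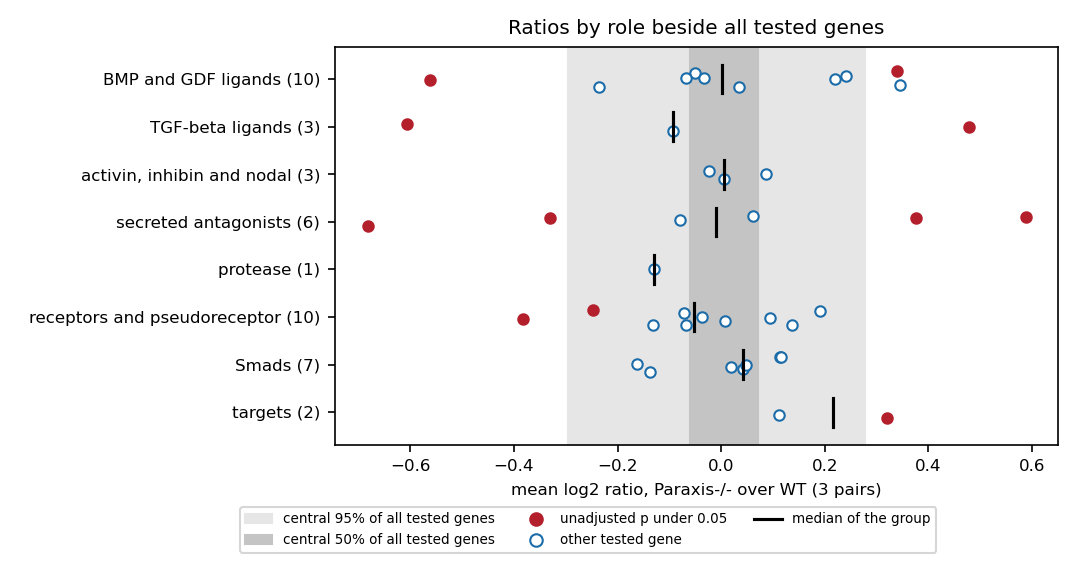
Mean log2 ratio of Paraxis-/- over WT (x axis) of each tested gene, by role (y axis, number of tested genes in brackets), with the group median as a bar and grey bands for the central 95% and 50% of all genes tested. Filled points, unadjusted p under 0.05, lie on both sides of 0 among BMP ligands, TGF-beta ligands and antagonists. All 7 Smads, each read by its brightest probe, lie between -0.16 and 0.12.

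Among the BMP and GDF ligands, 10 of 14 genes were tested, 5 with a positive and 5 with a negative mean. The median log2 ratio was 0.00. Bmp7, a ligand made by surface ectoderm and many other embryonic epithelia, and Bmp3, an atypical BMP that counteracts other BMPs, had ratios of opposite sign.

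Bmp7 had log2 signals of 11.26, 11.51 and 11.35 in the WT pools of pairs A, B and C and of 11.70, 11.81 and 11.63 in the Paraxis-/- pools. Each Paraxis-/- pool was above every WT pool. The mean log2 ratio was 0.34 (SE 0.07, n = 3 pairs, adjusted p = 0.672), or 1.27-fold, and all 6 arrays were positive. The second Bmp7 probe gave 0.41, 0.33 and 0.35 in pairs A, B and C. Bmp7 lies on the chromosome of the targeted gene, 20.7 Mb from Tcf15, and Bmp2 lies 18.6 Mb from it on the other side; the part of this linkage in their ratios was not tested.

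Bmp3 had log2 signals of 9.76, 10.06 and 9.97 in WT and of 9.35, 9.42 and 9.34 in Paraxis-/- pools. The genotypes did not overlap, and the Paraxis-/- pools lay closer together than the WT pools. Its mean log2 ratio was -0.56 (SE 0.08, adjusted p = 0.414), which is 1.48-fold lower, and all 6 arrays were negative. In a fit on the 6 arrays with no replicate block, which counts technical dye swaps as replicates, Bmp3 passed (adjusted p = 0.0281).

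For several other ligands of this family the sign differed between pairs. Gdf10, also called Bmp3b, had a mean log2 ratio of 0.35 (SE 0.22, adjusted p = 0.952), from 0.70, -0.31 and 0.64 in pairs A, B and C. Its signals overlapped between the genotypes. Bmp2 had a mean of 0.22 (SE 0.13, adjusted p = 0.95), made up of 0.57, -0.03 and 0.12 in pairs A, B and C, so pair A carried most of it. Gdf1, a partner of Nodal in left-right patterning, had 0.79, -0.13 and 0.06 in pairs A, B and C. Gdf1 lies on a transcript shared with the ceramide synthase gene Cers1, and whether the probe separates them was not tested.

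Bmp4, the main BMP of the lateral plate, had log2 ratios of -0.60, 0.21 and -0.32 in pairs A, B and C, with a mean of -0.24 (SE 0.16, adjusted p = 0.953). Its 95% interval ran from -0.66 to 0.19 and its pools overlapped. Bmp5, Bmp6, Gdf6 and Gdf11 had means between -0.07 and 0.03. Of these, Gdf11, which patterns the axial skeleton, had a common sign in the 3 pairs, with -0.01, -0.04 and -0.05, and its pools overlapped.

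The 3 TGF-beta ligands are structurally close, and here each took its own course. Tgfb2 was higher, Tgfb3 lower, and Tgfb1 between them.

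Tgfb2 had log2 signals of 9.25, 9.68 and 9.81 in the WT pools of pairs A, B and C and of 9.72, 10.18 and 10.28 in the Paraxis-/- pools. The genotypes overlapped, since both pools of pair A were the dimmest of their genotype, but within pairs the difference hardly varied: the log2 ratios were 0.47, 0.50 and 0.47. Their mean was 0.48 (SE 0.06, n = 3 pairs, adjusted p = 0.362), or 1.39-fold. All 6 arrays were positive, and the 2 dye orientations of pair A gave 0.16 and 0.77. In a limma fit on all 6 arrays, with the pair as a replicate block, the SE was 0.13 (adjusted p = 0.438).

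Tgfb3 had log2 signals of 9.75, 9.57 and 9.69 in WT and of 8.997, 9.07 and 9.13 in Paraxis-/- pools. All Paraxis-/- pools lay below all WT pools. The log2 ratios were -0.76, -0.50 and -0.56 in pairs A, B and C, with a mean of -0.61 (SE 0.08, adjusted p = 0.359), a 1.52-fold lower signal, and all 6 arrays were negative. With the 6 arrays, technical dye swaps included, fitted with the pair as a replicate block, Tgfb3 had an adjusted p of 0.0427 at the same ratio. Tgfb1 had -0.14, 0.03 and -0.16, a mean of -0.09 (SE 0.08, adjusted p = 0.953).

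Tgfb2 was the one gene of these 6 besides Nbl1 with a promoter among the RefSeq sequences used (GRCm38.p6). Both promoters are printed as the 250 bases before the start site. Capitals mark CANNTG, the letters of the E-box that basic helix-loop-helix proteins such as Paraxis bind.

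Tgfb2: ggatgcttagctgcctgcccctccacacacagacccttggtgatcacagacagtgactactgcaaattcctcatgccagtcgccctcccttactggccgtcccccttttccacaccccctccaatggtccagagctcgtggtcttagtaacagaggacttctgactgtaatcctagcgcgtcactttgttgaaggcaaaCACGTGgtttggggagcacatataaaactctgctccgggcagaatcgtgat

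Nbl1: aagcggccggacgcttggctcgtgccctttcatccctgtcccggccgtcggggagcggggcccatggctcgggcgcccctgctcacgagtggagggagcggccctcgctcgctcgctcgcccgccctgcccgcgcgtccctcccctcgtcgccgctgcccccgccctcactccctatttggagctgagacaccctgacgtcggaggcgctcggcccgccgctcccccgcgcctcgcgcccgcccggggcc

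The Tgfb2 window lies on the minus strand at chr1:186705990-186706239 and holds 1 such match, CACGTG; the Nbl1 window, on the minus strand at chr4:139092971-139093220, holds none. Promoters were found for 33 of the 47 genes, with 39 start sites. CANNTG occurred in 14 of these 39 windows, or 35.9%, against 66.2% of 32851 promoter windows of the same length. GGCGCC, the letters of a BMP-responsive Smad element, occurred in 8 of the 39, or 20.5%, against 9.6%. Both motifs read the same on either strand and could share at most 1 base, base composition was not compared, and a match is only a description of the letters.

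Of the activin, inhibin and nodal genes 3 of 4 were tested, and their means lay between -0.02 and 0.09. Nodal, the ligand of gastrulation and left-right asymmetry, had log2 signals of 7.67, 7.70 and 7.69 in WT and of 7.82, 7.75 and 7.75 in Paraxis-/- pools. The genotypes did not overlap, yet the mean log2 ratio was only 0.09 (SE 0.07, adjusted p = 0.953). Inhbb, the activin beta-B chain, had 0.18, -0.23 and -0.02 in pairs A, B and C, and Inha, the inhibin alpha chain, had a mean of 0.01. Neither had a common sign.

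Secreted antagonists held the widest range of any group. Of 6 genes tested, 4 had an unadjusted p under 0.05, 2 in each direction, and the mean log2 ratios ran from -0.68 for Fst to 0.59 for Nbl1. Their median was -0.01.

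Nbl1 encodes DAN, a secreted protein that binds BMPs and GDFs. Nbl1 signals were 10.21, 9.94 and 9.85 in the WT pools of pairs A, B and C and 10.75, 10.55 and 10.46 in the Paraxis-/- pools. Every Paraxis-/- pool exceeded every WT pool. The log2 ratios of 0.54, 0.61 and 0.62 gave a mean of 0.59 (SE 0.07, n = 3 pairs, adjusted p = 0.27), or 1.502-fold, with a 95% interval from 0.42 to 0.76. Its p was the 24th smallest of the 19354 genes, and the dye orientations of a pair differed by at most 0.11. With the pair as a replicate block over 6 arrays, technical dye swaps included, its adjusted p was 0.0235.

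Grem1 encodes gremlin, an antagonist of Bmp2, Bmp4 and Bmp7 in limb and flank. Its log2 signals were 9.06, 9.07 and 9.20 in WT and 9.69, 9.49 and 9.27 in Paraxis-/- pools. The genotypes did not overlap, but the pairs differed in size, at 0.63, 0.42 and 0.07. The mean was 0.38 (SE 0.12, adjusted p = 0.933), and in pair A the dye orientations gave 0.13 and 1.13. In the limma fit on 6 arrays with the pair as a replicate block, the SE was 0.18 (adjusted p = 0.84). Grem1 also lies on chromosome 2, 38.4 Mb from Tcf15.

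Fst encodes follistatin, which binds activins and, less tightly, BMPs. Its log2 signals were 10.54, 10.08 and 10.02 in WT and 9.64, 9.30 and 9.66 in Paraxis-/- pools. No Paraxis-/- pool reached the lowest WT pool. The log2 ratios of -0.90, -0.79 and -0.36 gave a mean of -0.68 (SE 0.12, adjusted p = 0.553), 1.60-fold lower and the largest mean change of the 42 genes. All 6 arrays were negative.

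Fstl1, a follistatin-like glycoprotein of mesenchyme, had log2 signals of 14.57, 14.21 and 14.16 in WT and of 14.36, 13.95 and 13.64 in Paraxis-/- pools. The Paraxis-/- pool of pair A lay among the WT pools. The mean log2 ratio was -0.33 (SE 0.09, adjusted p = 0.889), and 6 of 6 arrays were negative. The classical BMP antagonists of the midline were close to 0: Nog, noggin, had 0.25, -0.07 and 0.01 in pairs A, B and C (mean 0.06, SE 0.09, adjusted p = 0.976). Chrd, chordin, had -0.15, 0.00 and -0.08 (mean -0.08, SE 0.07, adjusted p = 0.953), with a dye gap of up to 0.76 between the arrays of a pair. Bmp1, the protease that cleaves chordin, had -0.60, 0.21 and 0.00 in pairs A, B and C, and its mean of -0.13 (SE 0.17, adjusted p = 0.971) had no common sign.

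**Figure D2:**
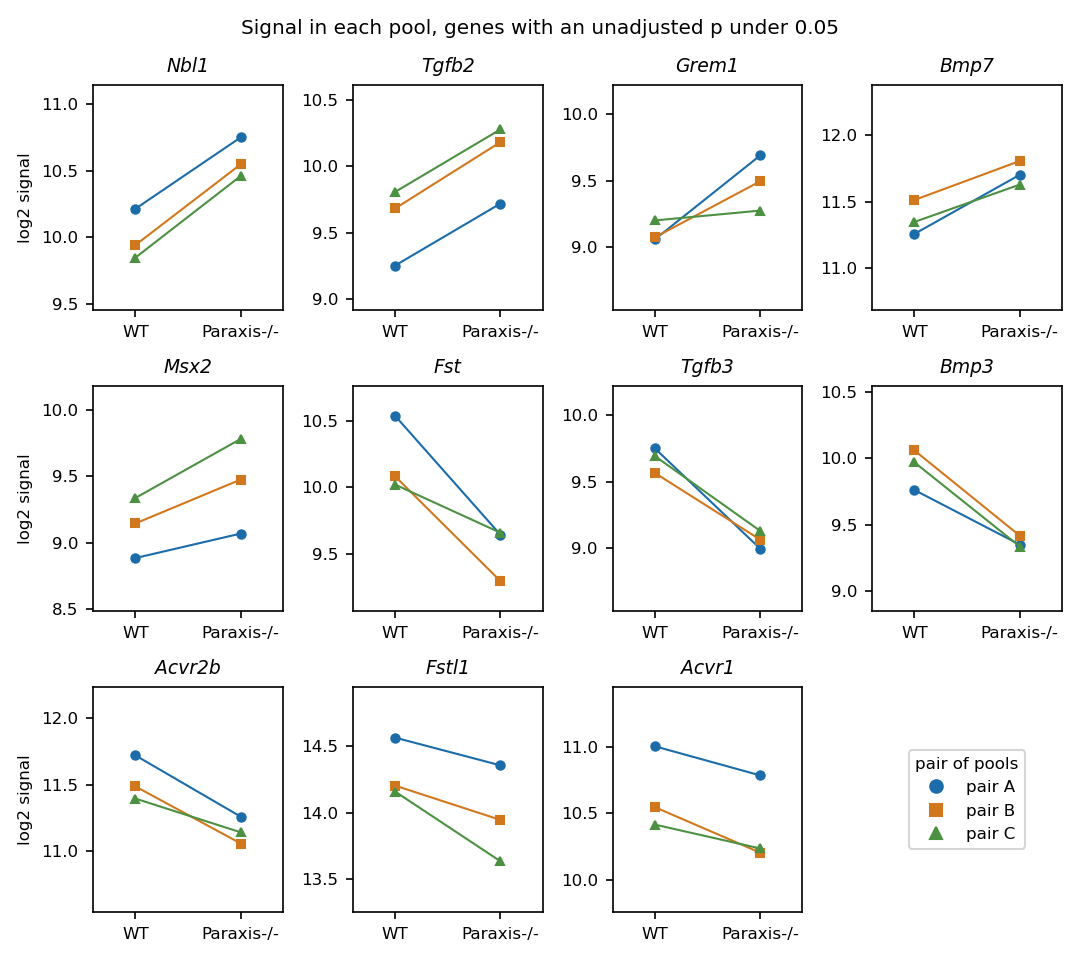
Log2 signal (y axis, the same span in every panel) of each WT and Paraxis-/- pool for the 11 genes with an unadjusted p under 0.05, with a line joining the 2 pools of a pair. All 3 lines climb for Nbl1, Tgfb2, Grem1, Bmp7 and Msx2 and descend for the other 6 genes, and the lines are nearly parallel for Nbl1 and Tgfb2.

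Of the receptor genes all 10 were tested, and 2 had an unadjusted p under 0.05, both lower. The median of the group was -0.05. Acvr2b, a type II receptor for activins, Nodal and Gdf11 that patterns the axial skeleton, had log2 signals of 11.72, 11.49 and 11.39 in WT and of 11.26, 11.06 and 11.14 in Paraxis-/- pools. The genotypes did not overlap. The log2 ratios of -0.46, -0.43 and -0.25 gave a mean of -0.38 (SE 0.08, adjusted p = 0.623), or 1.30-fold lower, and all 6 arrays were negative.

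Acvr1, a type I receptor for BMPs, had log2 signals of 11.01, 10.55 and 10.42 in WT and of 10.79, 10.20 and 10.24 in Paraxis-/- pools. These overlapped, because the pair A pools were the brightest of both genotypes. Its log2 ratios were -0.22, -0.34 and -0.18, with a mean of -0.25 (SE 0.07, adjusted p = 0.933).

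Acvr2a, the paralogue of Acvr2b, had small positive log2 ratios of 0.01, 0.16 and 0.11, and all Paraxis-/- pools exceeded all WT pools. Bmpr1a, the main type I BMP receptor of the early embryo, had 0.19, 0.08 and 0.15, a mean of 0.14 (SE 0.07, adjusted p = 0.95); every array with WT in Cy5 was negative and every array with Paraxis-/- in Cy5 positive. Tgfbr2, the type II TGF-beta receptor, had -0.19, 0.28 and 0.48 (mean 0.19, SE 0.14, adjusted p = 0.953). The sign thus differed between pairs for Tgfbr2 and between dye orientations for Bmpr1a.

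The other receptors, Bmpr1b, Bmpr2, Tgfbr1, Tgfbr3 and Bambi, had means between -0.13 and 0.01 without a common sign in the 3 pairs. Bmpr1b, a type I receptor of cartilage precursors, had -0.40 in pair A against -0.05 and 0.06 in pairs B and C. Bambi, whose product is a receptor decoy that is itself a BMP target, had 0.05, -0.05 and -0.12.

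None of the 7 Smads had an unadjusted p under 0.05, and their means ran from -0.16 to 0.12 with a median of 0.04. Smad7, an inhibitory Smad, had log2 signals of 7.62, 8.86 and 8.92 in WT and of 7.77, 8.94 and 9.04 in Paraxis-/- pools. Both pools on the slide of pair A were dimmer by more than the genotypes differed, and within pairs the log2 ratios were 0.15, 0.08 and 0.12, with a mean of 0.12 (SE 0.07, adjusted p = 0.95). Smad4, the common Smad, had 0.13, 0.05 and 0.16 (mean 0.11, SE 0.07, adjusted p = 0.95), with log2 signals of 14.17, 14.26 and 14.28 in WT and of 14.30, 14.31 and 14.43 in Paraxis-/- pools. These did not overlap, but its second probe gave -0.30, -0.25 and 0.28.

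Smad6, the inhibitory Smad of the BMP branch, had a mean of -0.16 with a 95% interval from -0.42 to 0.09, and Smad3, of the TGF-beta branch, had -0.51, -0.17 and 0.27 in pairs A, B and C. Smad1, Smad2 and Smad5 had means of 0.04, 0.02 and 0.05 and 95% intervals within -0.21 and 0.30. At this precision changes in Smad1, Smad2 and Smad5 RNA within these bounds remain possible. An interval that includes 0 does not show that a gene was equal in both genotypes. The intervals are those of the brightest probe of each gene, and another Smad5 probe had a mean of -0.38, outside these bounds.

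The homeobox genes Msx1 and Msx2, which BMP signals induce in lateral and dorsal tissues, both had positive log2 ratios in all 3 pairs. Msx2 had log2 signals of 8.88, 9.15 and 9.34 in WT and of 9.07, 9.48 and 9.78 in Paraxis-/- pools. The genotypes overlapped, while the pair ratios were 0.18, 0.33 and 0.44, with a mean of 0.32 (SE 0.08, adjusted p = 0.818), or 1.25-fold. Msx1 had 0.02, 0.08 and 0.23, a mean of 0.11 (SE 0.08, adjusted p = 0.953), and all 6 arrays of both genes were positive. A dimmer Msx1 probe gave 0.36, 0.19 and 0.26.

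**Figure D3:**
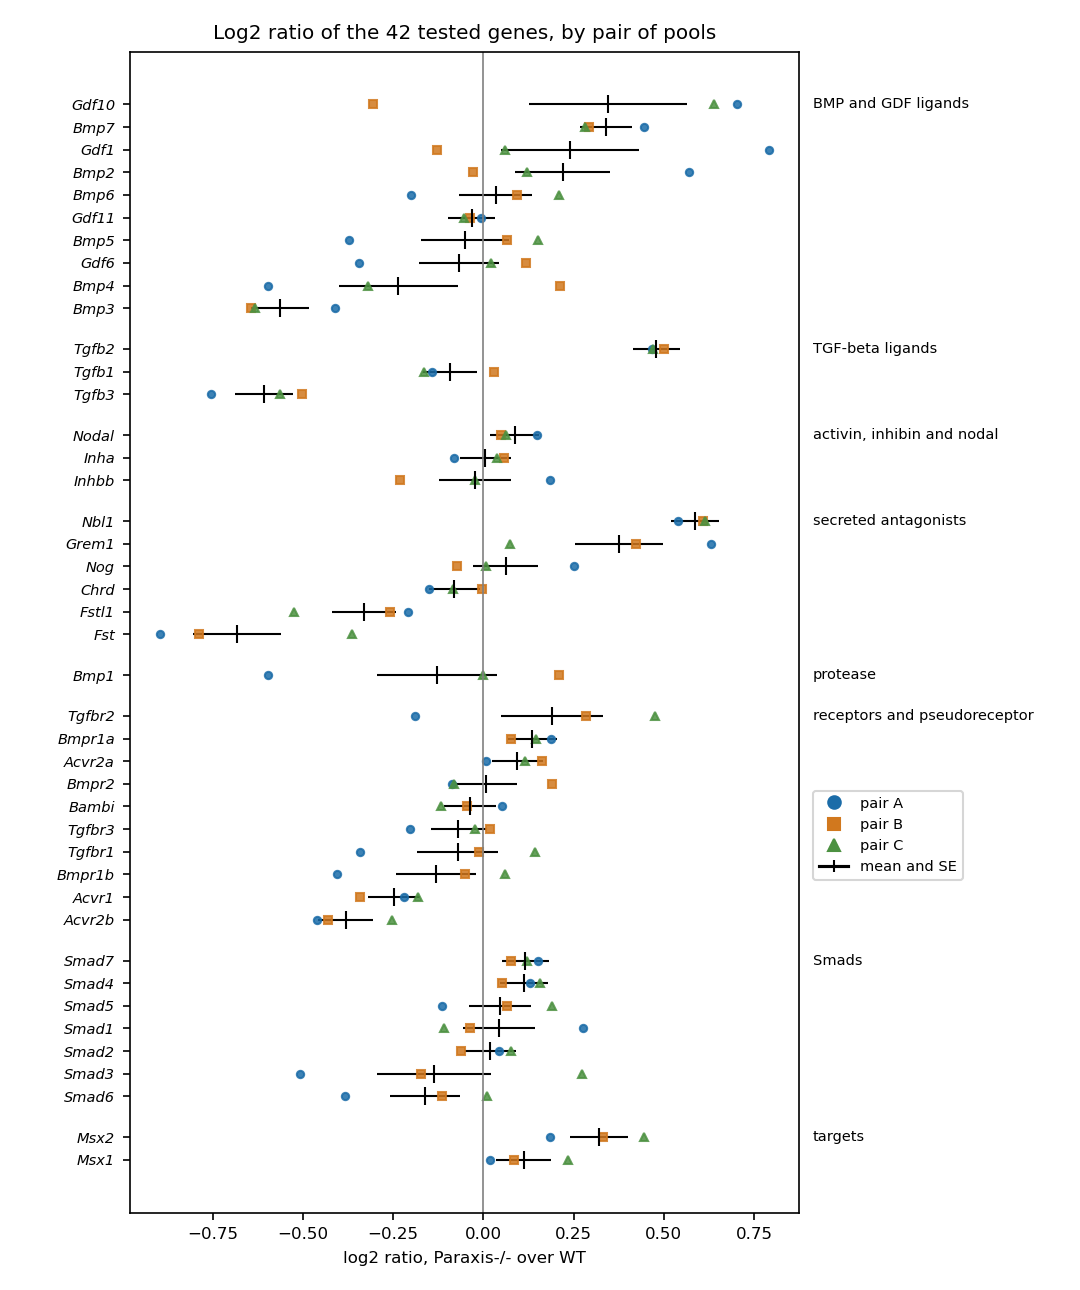
Log2 ratio of Paraxis-/- over WT (x axis) of each tested gene (y axis), grouped by role and ordered by the mean within a group, with 1 symbol per pair and the mean with its SE as a tick and line. The 3 pairs lie close together for Tgfb2 (0.47 to 0.50) and Nbl1 (0.54 to 0.62) and far apart for Gdf10 (-0.31 to 0.70).

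Other genes of the pathway were taken from a list of 53, of which 46 were tested. At an unadjusted p under 0.05 there were 5 of 46, all higher (2.34% of all genes tested were higher at this level), and none passed the adjusted threshold. The median log2 ratio was 0.01 and the median absolute log2 ratio 0.09. Skil, a repressor that binds Smads and is itself induced by TGF-beta, had a mean of 0.25 (SE 0.07, adjusted p = 0.933). With the mean of its probes in place of the brightest, Skil had 0.14.

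Zeb2, a Smad-binding repressor, had 0.19, Vasn, a TGF-beta trap at the cell surface, had 0.19, and Id4, an inhibitor of basic helix-loop-helix proteins, had 0.19, each positive in all 3 pairs. Id2, a BMP-induced gene of the same family, had the next smallest p, with a mean of -0.23 (SE 0.11, adjusted p = 0.95) and -0.49, -0.15 and -0.05 in pairs A, B and C, its Paraxis-/- pools lying below its WT pools. With the mean of the probes of a gene, Id2 had -0.19 (SE 0.12) and Id4 had 0.21. Neither Id gene passed the adjusted threshold.

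More than 1 kept probe was available for 12 of the tested genes, and the mean log2 ratios of the probes had opposite signs for 5 of them, Inha, Inhbb, Smad1, Smad4 and Smad5. For Smad5 the brightest probe gave a mean of 0.05, the dimmest 0.02 and the remaining one -0.38, with -0.50, -0.46 and -0.18 in pairs A, B and C. That probe lies at chr13:56840572-56840631, and which Smad5 transcripts it reads is not annotated here. Of the 11 genes with an unadjusted p under 0.05, 10 had a single probe, and only Bmp7 could be compared between probes.

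**Figure D4:**
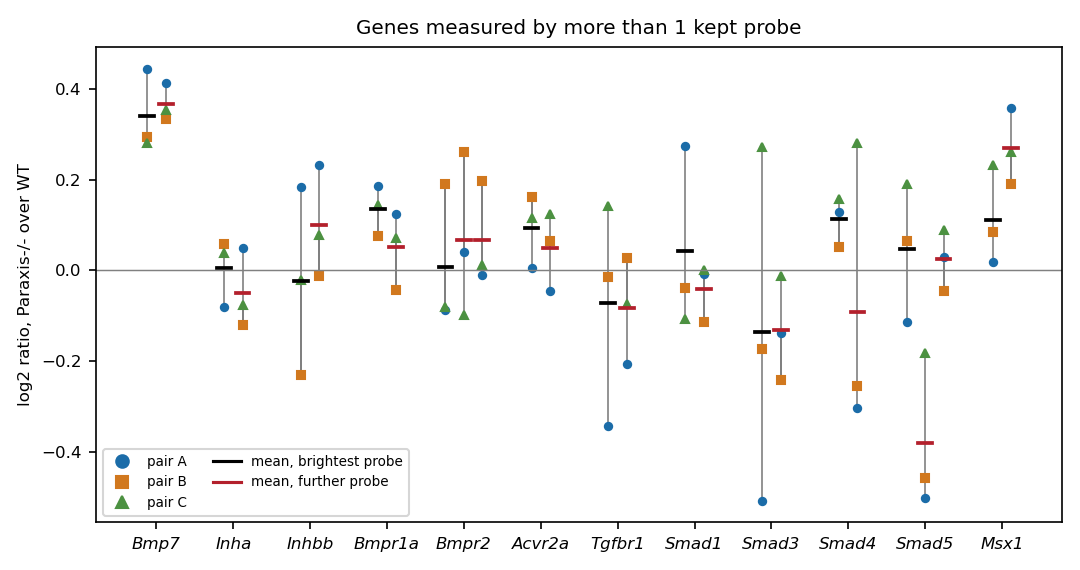
Log2 ratio of Paraxis-/- over WT (y axis) in each pair for the 12 genes with more than 1 kept probe (x axis), the probes of a gene being side by side from brightest to dimmest and bars marking the mean of each. Both Bmp7 probes lie above 0 in every pair (means 0.34 and 0.37), while a Smad5 probe at -0.38 stands apart from its neighbours.

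As a check of the labels, the log2 ratio of Tcf15 was -5.41 (SE 0.09, adjusted p = 0.000536). Of 43379 gene spots per array, 27080 to 30982 were well above background for WT RNA and 28683 to 31795 for Paraxis-/- RNA, and no probe of the 47 genes was saturated. Of 10 markers of paraxial mesoderm and somites 9 were tested and all were well above background in both genotypes, but not at equal ratios: 4 were positive and 5 negative, with a median of -0.18 and medians of 0.04, -0.40 and -0.27 in pairs A, B and C. At an unadjusted p under 0.05, 3 were lower (Uncx -0.78, Pax3 -0.49 and Foxc1 -0.28) and 0 higher, and none passed the adjusted threshold. Tbx6, a gene of the unsegmented mesoderm, had a mean of 0.69 with an SE of 0.58, of which pair A alone had 2.43. The summed log2 signal of the 9 was 15.78 to 15.89 in WT and 15.58 to 16.08 in Paraxis-/- pools. Markers of neighbouring tissues were also present in both genotypes. Of 10 surface ectoderm markers 9 were tested, all with positive mean ratios (median 0.22), and their summed log2 signal ranged from 14.30 to 14.97 in WT and from 14.93 to 15.22 in Paraxis-/- pools. By pair the median was 0.45, 0.08 and 0.09 in A, B and C, against 0.45, 0.29 and 0.28 for Bmp7. Of 8 lateral plate and intermediate mesoderm markers 7 had positive means (median 0.10), with summed log2 signals of 11.42 to 11.65 in WT and 11.74 to 11.97 in Paraxis-/- pools. In pairs A, B and C their median was 0.06, 0.08 and 0.06. Grem1 had 0.63, 0.42 and 0.07 in these pairs, and Msx2 had 0.18, 0.33 and 0.44. All 5 gut endoderm markers had positive means (median 0.26, summed log2 signals 11.63 to 13.19 in WT and 12.59 to 13.98 in Paraxis-/- pools). So had all 6 primitive blood markers (median 0.51, 14.92 to 15.94 and 15.70 to 16.39). By pair the medians were 0.39, -0.01 and 0.37 for gut and 0.31, 0.92 and -0.13 for blood in A, B and C. Only 1 marker of each of these lists was positive in all 3 pairs. The 4 tested roof plate markers were mixed (median 0.02, summed log2 signals 11.83 to 12.69 in WT and 11.19 to 12.36 in Paraxis-/- pools). Medians were 0.08 for endothelium, 0.19 for notochord and floor plate, 0.09 for neural tube and -0.10 for neural crest markers. At an unadjusted p under 0.05, 2 endothelium, 2 primitive blood, 1 surface ectoderm and 1 gut marker were higher (2.34% of all genes were). No marker outside the somite list was lower at this level, and none passed the adjusted threshold. The lists share genes: Sox17 was counted under gut and endothelium, and Shh under gut and under notochord and floor plate. No tested marker of the surface ectoderm, lateral plate, gut or blood lists was at background, and Grhl3 was not analysed here. The part of these tissues in the ratios above was not tested, and in pooled tissue fewer cells of a type and less RNA per cell cannot be told apart.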

How the data were processed

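RNA of 6 pools was compared on 6 two-colour Agilent arrays. Per the labels' protocols, 250 ng of total RNA with an integrity number of at least 7.9 was labelled with Cy3 or Cy5. The authors deposited spot intensity from Agilent Feature Extraction, version 10.7.3.1 for one slide and 10.5.1.1 for the other per the file headers (8.5.1.1 per the submitters' processing notes). The deposited log10 ratio of Cy5 over Cy3 was already background-subtracted and dye-normalized and served as an alternative. Flags for spots well above background, saturated or outlying were used as deposited.

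Median intensities were background-corrected by normexp (offset 50) and loess-normalized within arrays in limma 3.58.1 under R 4.3.3. Outlier spots were left out, every ratio was expressed as Paraxis-/- relative to WT, and the dye orientations of each pair were averaged. Pool signals are log2 values after Aquantile scaling. Probes had to be well above background in 4 of 6 measurements of either genotype (28639 kept), and the brightest probe stood for a gene. A moderated two-sided limma test (lmFit, eBayes) compared the 3 pair ratios with 0, Benjamini-Hochberg adjusted over 19354 genes, of which 73 had fewer than 3 pairs; all 42 genes described had 3. The fit was tested on simulated data.

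For 2 arrays the title and the description name different pools; pairs follow the titles. Across genes, arrays of the same pair in the titles had deviations from the mean of their dye orientation correlated at r of 0.42, 0.63 and 0.64. Other combinations had -0.44 to -0.12, but subtracting that mean by itself tends to make these negative. Without the subtraction, r was 0.38, 0.28 and 0.56 for the same pair and -0.12 to 0.08 for other combinations. Full values are given for genes with an unadjusted p under 0.05 and up to 2 more in each role group with the smallest p; up to 6 other pathway genes were taken by smallest p, of which 1 is not reported here. The genes, the role groups and the lists were chosen with earlier results of these data known. Alternatives covered background correction, normalization, scaling, the deposited ratios, the probe filter, the choice of probe, blocking, slide, dye orientation and leaving out each pair.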

Additional observations from a re-analysis of the deposited data

How the results depend on the processing

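The 11 genes with an unadjusted p under 0.05, picked by p in these same data, kept the sign of their log2 ratio in all 16 alternatives. Most alternatives could not turn it. Each of the 11 genes had 1 sign on all 6 arrays. Leaving out pairs, slides or dye orientations, adding slide as a term and scaling between arrays therefore could not change it. The fits on 6 arrays and the changes of the probe filter left the mean ratios of these genes as they were. The mean of the probes of a gene altered only Bmp7 among them. Without pairs A, B and C, 11, 9 and 11 genes of the pathway had an unadjusted p under 0.05. Of all genes tested, 5.82%, 3.78% and 5.13% did so in these fits. Among the pathway genes so found, 10, 7 and 10 belonged to the 11 of the main fit. The median log2 ratio of the 42 genes ranged from -0.02 to 0.05. No gene of the pathway passed the adjusted threshold in the fits that left out 1 pair (0 to 0 genes). Dye swaps are technical, and fitted as 6 arrays with the pair as a replicate block (correlation 0.47 between swaps) 2 genes passed, Nbl1 and Tgfb3, against 40 of all genes; with no replicate block 3 passed, Bmp3 in addition, against 69 of all genes. Slide as a fixed term gave 16 genes at an unadjusted p under 0.05, against 10.8% of all genes, and none past adjustment. Signs turned for genes near 0. On slide 2 alone, which is the fit without replicate A, Bmp1 became 0.104 and Nog -0.033. On arrays with WT in Cy5, Bmpr1a became -0.0633, Smad4 -0.0394, Tgfb1 0.0397 and Inhbb 0.0212; with Paraxis-/- in Cy5, Chrd became 0.202 and Nog -0.0047. Inhbb became 0.0384 with the mean of its probes and 0.0289 with slide as a term. Over the fits without 1 pair, Bmp1 ranged from -0.298 to 0.104, Inhbb from -0.127 to 0.0811 and Nog from -0.033 to 0.129. The cause of these was not tested.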
